A study of Mus musculus with 6 samples.

Results

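The genes described here encode the mitochondrial pathway of fatty acid oxidation, the nuclear receptors and coactivator that drive its transcription, and other known targets of the receptor PPAR-alpha. The list holds 30 genes and was drawn up by function, with earlier results of these data known. All 30 had a probe on the array, found by matching the RefSeq accession of each probe to a gene symbol, and 40 probes carried one of these symbols. Of the 30 genes, 29 were measured, because at least 1 of their probes was flagged well above background on all 3 arrays of either group. The exception was Fgf21. The 29 are part of 14563 named genes that passed the same filter.

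The samples were total RNA of cardiac ventricles from female C57BL/6N mice aged 21 weeks, hybridised singly to Cy3 Agilent expression arrays. The sleep fragmented mice had their sleep interrupted for 5 weeks (3 arrays), and the control mice were left undisturbed (3 arrays). The sources used here name no genetic change in either group and do not say whether RNA was pooled or each sample came from its own animal, so the p-values reflect only how far these samples differ among themselves, which may be technical variation. In the file headers all arrays of a group carry the same scan date entry and the groups carry different ones. In every comparison scan date and group therefore cannot be told apart. In bulk ventricle RNA, fewer cells of a type and less RNA per cell cannot be told apart.

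Fatty acids are the main fuel of the adult heart. A long-chain fatty acid is activated to its acyl-CoA, passed into the mitochondrion as a carnitine ester, and shortened by repeated rounds of dehydrogenation, hydration, a second dehydrogenation and thiolytic cleavage, with electrons leaving through the electron transfer flavoprotein. PPAR-alpha, bound to fatty acids and paired with a retinoid X receptor, raises transcription of most enzymes of the pathway, and PGC-1alpha, the product of Ppargc1a, is a coactivator of PPAR-alpha and of the estrogen-related receptors.

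Promoter sequences from RefSeq (GRCm38.p6) were available for 26 of the 30 genes, in 27 windows that run from 250 bases before a transcription start to 50 bases after it. They are shown because PPAR-alpha is a known regulator of many genes of the list. The PPAR response element is read as 2 copies of AGGTCA in the same direction with any single base between them. On either strand, 0 of the 27 windows held the element with at most 1 mismatch, and 2 held it with at most 2 mismatches, those of Etfa and Slc25a20. Of all 32851 promoter windows of that length, 0.554% held it with at most 1 mismatch and 3.86% with at most 2. A single AGGTCA, which also lies within the longer element, was found for 4 genes, Acadm, Acadvl, Plin5 and Cpt1a, in 5 of the 27 windows, against 16.3% of all windows. The longer form TNAAGGTCA, the usual site of estrogen-related receptors, was in 0 of the 27 windows and in 1.28% of all windows. A match is a run of letters, not evidence of binding, and elements outside these windows were not searched. Short stretches holding AGGTCA are given for 3 of the genes, on the strand of the gene (minus for all 3) and with the copy, or its reverse complement TGACCT, in capitals.
Acadm, chr3:153944834-153944893: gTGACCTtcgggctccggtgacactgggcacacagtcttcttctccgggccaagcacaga
Acadvl, chr11:70015483-70015542: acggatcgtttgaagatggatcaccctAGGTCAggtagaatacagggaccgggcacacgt
Plin5, chr17:56117686-56117745: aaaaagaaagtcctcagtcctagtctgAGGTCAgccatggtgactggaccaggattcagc

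Hadha and Hadhb encode the alpha and beta subunits of the mitochondrial trifunctional protein, and they start on opposite strands of chromosome 5, at 30154980 (Hadha, minus strand) and 30155253 (Hadhb, plus strand), 273 bases apart. The 272 bases between the starts are shown because both subunits are read from this region and their measured differences are compared below. Searched on both strands, it held 2 copies of GGGCGG, the letters of a GC box (capitals), which occurred in 35.7% of all promoter windows. It held 0 copies of CCAAT and 0 of AGGTCA, which occurred in 37.4% and 16.3% of all windows.
Hadha-Hadhb, chr5:30154981-30155252, plus strand: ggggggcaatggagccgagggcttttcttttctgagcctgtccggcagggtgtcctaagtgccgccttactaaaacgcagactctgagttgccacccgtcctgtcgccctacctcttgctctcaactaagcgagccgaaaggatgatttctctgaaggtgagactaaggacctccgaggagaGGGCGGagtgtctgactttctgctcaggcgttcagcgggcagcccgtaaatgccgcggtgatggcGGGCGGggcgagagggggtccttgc

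A difference between sleep fragmented and control ventricles passed the test for 0 of the 29 measured genes. By limma with Benjamini-Hochberg adjustment over all 25238 measured probes, 0 of the 29 had an adjusted p under 0.05, and the lowest adjusted p among them was 0.949. Over all probes 0 passed too, which is 0%, and the lowest adjusted p was 0.535. Without adjustment, 0 of the 29 had a p under 0.05, against 2.71% of all probes and 2.72% of named genes. An absolute log2 fold change of at least 0.5 was seen for 0 of the 29 and for 6.49% of named genes. In 0 of the 29 did all sleep fragmented arrays lie on one side of all control arrays, against 7.4% of named genes. Fold changes below are sleep fragmented over control on the log2 scale. Levels are log2 signals relative to the 75th percentile of signal of the same array, and they compare arrays for 1 gene, not genes with each other.

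The 95% interval of the fold change reflects the spread among these samples under the main scaling. It does not cover the scan date or the choice of scaling, so it does not bound a missed effect of sleep fragmentation. The interval lay within a 2-fold change in both directions for 25 of the 29 genes and within a 1.5-fold change for 9. The exceptions at 2-fold were Acot1, Ehhadh and Acot2, whose intervals reached at least 2-fold lower in the sleep fragmented ventricles, and Ppara, whose interval reached 2-fold higher. Over the 29 genes the log2 fold change lay between -0.48 and 0.22, with a median of -0.10, and the median standard error was 0.21. With median scaling the median was -0.31.

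**Figure D1:**
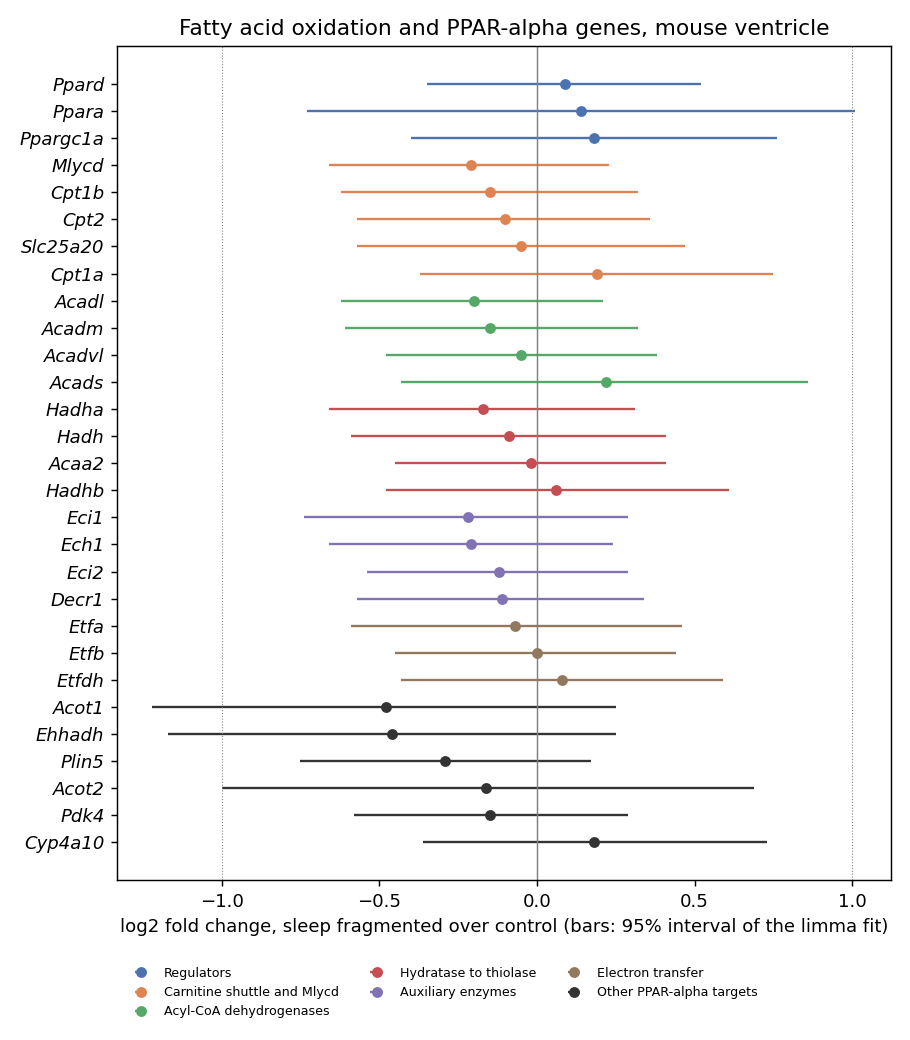
Log2 fold change of the 29 measured genes, sleep fragmented over control, ordered by role, with the 95% interval of the limma fit as bars (3 arrays per group) and dotted lines at a 2-fold change. Every interval covers 0, and the lowest values are those of Acot1 (-0.48) and Ehhadh (-0.46).

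The 3 regulators of transcription had positive log2 fold changes, all smaller than their standard errors. Ppara, the receptor itself, had levels of 2.37, 2.22 and 3.20 on sleep fragmented replicates 1, 2 and 3, against 3.07, 1.66 and 2.64 on control replicates 1, 2 and 3. The controls alone spanned almost the whole range of both groups, and the log2 fold change was 0.14 ± 0.38 (SE, 3 arrays per group). It was -0.16 without sleep fragmented replicate 3 and -0.26 without control replicate 2. The other measured Ppara probes gave 0.15 ± 0.30 and 0.28 ± 0.23.

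Ppargc1a had levels of 3.75, 3.92 and 4.29 on the sleep fragmented arrays, against 4.26, 3.42 and 3.74 on the controls, a log2 fold change of 0.18 ± 0.26 (SE), and its second probe gave -0.01 ± 0.24. Ppard, which encodes the related receptor PPAR-delta, had levels of 0.50, 0.41 and 0.44 on the sleep fragmented arrays, against 0.53, 0.07 and 0.50 on the controls (0.09 ± 0.19). Control replicate 2 was the lowest of the 6 arrays for all 3 genes. Without that replicate the log2 fold change of Ppargc1a was -0.01 and that of Ppard -0.06, and with median scaling they were -0.03 and -0.12.

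The carnitine shuttle and its control gave log2 fold changes between -0.21 and 0.19 for 5 genes, 4 of them negative. Mlycd, malonyl-CoA decarboxylase, removes the malonyl-CoA that inhibits carnitine palmitoyltransferase 1. Its levels were 4.10, 4.01 and 4.48 on the sleep fragmented arrays, against 4.30, 4.52 and 4.42 on the controls (-0.21 ± 0.20, SE). Cpt1b, the muscle form of carnitine palmitoyltransferase 1, had 4.90, 4.33 and 4.83 on the sleep fragmented arrays, against 4.76, 4.89 and 4.86 on the controls (-0.15 ± 0.21), so that only replicate 2 of the sleep fragmented group lay outside the control range by more than 0.05. Without that replicate the value was 0.03.

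Cpt1a, the form dominant in liver, had -0.32, 0.33 and -0.25 on the sleep fragmented arrays, against -0.55, 0.06 and -0.32 on the controls, a log2 fold change of 0.19 ± 0.25. It was the only one of the 29 whose highest level was on sleep fragmented replicate 2, and without that replicate the value was -0.02. Cpt2, which re-forms acyl-CoA inside the mitochondrion, gave -0.10 ± 0.21, and Slc25a20, the carnitine-acylcarnitine carrier, gave -0.05 ± 0.23. The second probes of these genes were close for Cpt1a (0.05 ± 0.24) and Cpt1b (-0.18 ± 0.20) and of opposite sign for Cpt2 (0.16 ± 0.27).

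The 4 acyl-CoA dehydrogenases, which catalyse the first step of each round for chains of different length, had log2 fold changes between -0.20 and 0.22. Acadl (long chain) had levels of 4.74, 4.39 and 4.65 on the sleep fragmented arrays, against 4.87, 4.67 and 4.86 on the controls (-0.20 ± 0.18, SE). Sleep fragmented replicate 1 lay within the control range, replicate 3 just under it and replicate 2 further below. Acads (short chain) had -1.20, -2.06 and -1.06 on the sleep fragmented arrays, against -1.75, -1.84 and -1.37 on the controls (0.22 ± 0.28). For Acads replicates 1 and 3 lay above every control and replicate 2 below every control. Its value was 0.53 without sleep fragmented replicate 2 (unadjusted p = 0.0501 by limma) and 0.03 without replicate 3. With array weights the value of Acads was 0.40. It was 0.08 with quantile normalization, 0.01 with median scaling and 0.03 with normexp. Acadm (medium chain) gave -0.15 ± 0.21 and Acadvl (very long chain) -0.05 ± 0.19.

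Hadha had levels of 1.68, 1.52 and 2.17 on the sleep fragmented arrays, against 1.88, 2.03 and 1.99 on the controls, a log2 fold change of -0.17 ± 0.21 (SE). Hadhb, read from the other strand of the shared promoter region, had 7.38, 6.59 and 6.74 on the sleep fragmented arrays, against 6.90, 6.66 and 6.97 on the controls (0.06 ± 0.24). The 2 subunit genes thus took their highest level on different arrays, Hadha on sleep fragmented replicate 3 and Hadhb on replicate 1, and both took their lowest on replicate 2. Without sleep fragmented replicate 1 the value of Hadhb was -0.18, and with quantile normalization it was -0.15. Hadh, the short-chain hydroxyacyl-CoA dehydrogenase, gave -0.09 ± 0.22, and Acaa2, the thiolase, gave -0.02 ± 0.19.

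The auxiliary enzymes handle double bonds of unsaturated fatty acids, and all 4 had negative log2 fold changes. Eci1, an enoyl-CoA isomerase, had levels of 4.41, 4.01 and 4.77 on the sleep fragmented arrays, against 4.50, 4.62 and 4.74 on the controls (-0.22 ± 0.23, SE). Ech1, a dienoyl-CoA isomerase, gave -0.21 ± 0.20, and Eci2, the other enoyl-CoA isomerase, gave -0.12 ± 0.18. Decr1, the dienoyl-CoA reductase, had 5.72, 5.32 and 5.62 on the sleep fragmented arrays, against 5.45, 5.88 and 5.67 on the controls (-0.11 ± 0.20), and its second probe gave -0.22 ± 0.22. Each of these 4 genes took its lowest level on sleep fragmented replicate 2, and without that replicate the value was -0.03 for Eci1 and 0.00 for Decr1. Negative values made up 40.6% of all named genes, and their share grew with probe brightness, as given below.

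The electron transfer genes had log2 fold changes between -0.07 and 0.08. Etfa and Etfb, the subunits of the electron transfer flavoprotein, gave -0.07 ± 0.23 and 0.00 ± 0.20 (SE), and the second Etfa probe gave -0.25 ± 0.29. With normexp Etfb was at -0.23 ± 0.08 (unadjusted p = 0.0263 and adjusted p = 0.992 by limma). Etfdh, which passes the electrons to ubiquinone, had 6.98, 6.37 and 6.60 on the sleep fragmented arrays, against 6.70, 6.29 and 6.71 on the controls (0.08 ± 0.22). Its sign was negative under quantile normalization (-0.05) and median scaling (-0.13).

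**Figure D2:**
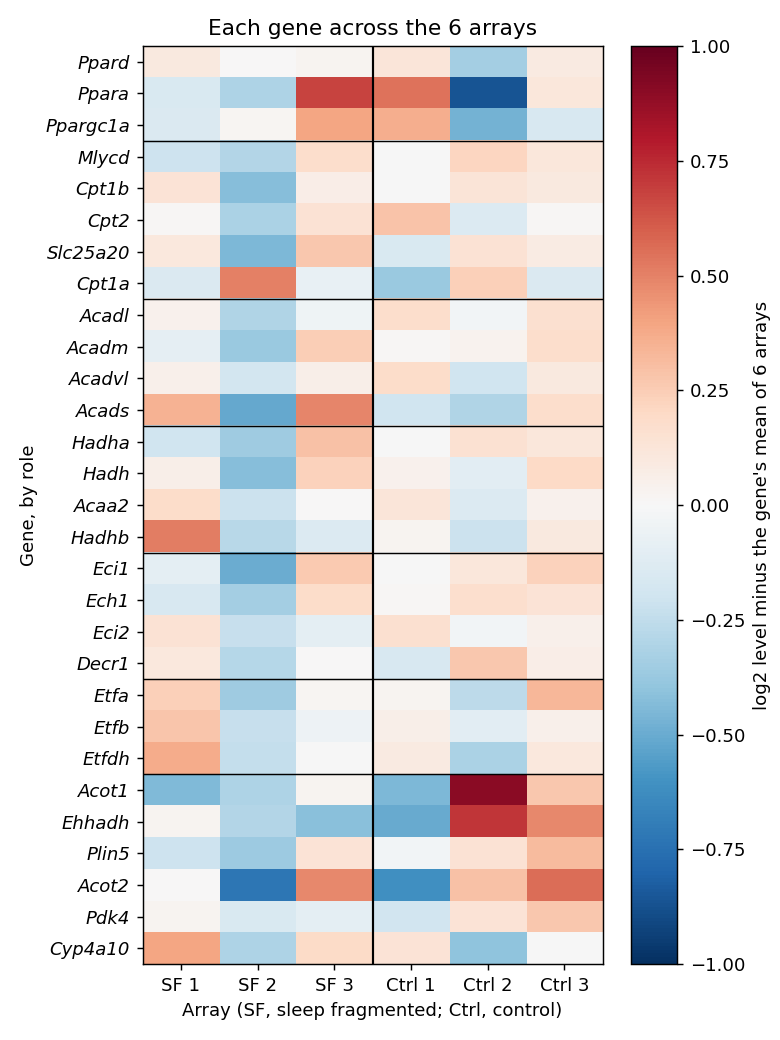
Level of each of the 29 genes on each array as the difference from the mean of the 6 arrays (log2 scale, colour), with sleep fragmented arrays on the left and control arrays on the right, and lines between roles. The column of sleep fragmented replicate 2 is blue for nearly all enzymes, while Acot1, Ehhadh and Acot2 are blue on control replicate 1 and red on control replicates 2 and 3.

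The known PPAR-alpha targets outside the mitochondrial cycle held the largest differences of the list. Acot1, a cytosolic acyl-CoA thioesterase, had levels of 3.39, 3.52 and 3.86 on the sleep fragmented arrays, against 3.38, 4.74 and 4.10 on the controls. It was 1.4-fold lower in the sleep fragmented ventricles, a log2 fold change of -0.48 ± 0.32 (SE, unadjusted p = 0.172 by limma), and its 95% interval ran between -1.22 and 0.25. Ehhadh, the peroxisomal bifunctional enzyme, had -0.76, -1.08 and -1.21 on the sleep fragmented arrays, against -1.29, -0.07 and -0.31 on the controls (-0.46 ± 0.31, unadjusted p = 0.176 by limma). In both genes control replicates 2 and 3 lay above every sleep fragmented array, and control replicate 1 lay below every one of them.

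Both values depended on single control arrays. Without control replicate 1 the log2 fold change was -0.83 ± 0.28 for Acot1 (unadjusted p = 0.0195 by limma) and -0.83 ± 0.24 for Ehhadh (unadjusted p = 0.00945), with an adjusted p of 0.981 for each. Without control replicate 2 they were -0.15 for Acot1 (unadjusted p = 0.586 by limma) and -0.22 for Ehhadh (unadjusted p = 0.481), and without replicate 2 of both groups -0.12 and -0.18. With array weights in the fit, Acot1 was at 0.01 and Ehhadh at -0.14. Control replicate 1 was also the lowest control for Acot2, the mitochondrial thioesterase, with -0.10, -0.83 and 0.37 on the sleep fragmented arrays, against -0.72, 0.18 and 0.45 on the controls (-0.16 ± 0.37). The value of Acot2 was 0.16 without sleep fragmented replicate 2 and 0.08 without control replicate 3.

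Pdk4, the kinase that switches off pyruvate dehydrogenase when fatty acids are burned, had 6.60, 6.41 and 6.47 on the sleep fragmented arrays, against 6.38, 6.70 and 6.84 on the controls (-0.15 ± 0.19, SE). Plin5, a lipid droplet protein of oxidative tissues, had 4.79, 4.64 and 5.13 on the sleep fragmented arrays, against 4.97, 5.14 and 5.32 on the controls (-0.29 ± 0.20). Both had their lowest control level on replicate 1 as well, and sleep fragmented replicates 1 and 2 lay below every control for Plin5. With median scaling Plin5 was at -0.50 ± 0.21 (unadjusted p = 0.0403 by limma, adjusted p = 0.798).

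Cyp4a10, a fatty acid omega-hydroxylase best known from liver and kidney, had the only positive value among these targets. Its brightest probe had -1.20, -1.89 and -1.40 on the sleep fragmented arrays, against -1.46, -1.99 and -1.59 on the controls (0.18 ± 0.24, SE), and its second measured probe gave 0.12 ± 0.21. The value of the brightest probe was 0.03 without sleep fragmented replicate 1, 0.03 without control replicate 2, 0.04 with quantile normalization, 0.02 with normexp and -0.02 with median scaling. Its remaining probe was well above background on 0 arrays. Control replicate 1 was the highest control here. Fgf21, a hormone that PPAR-alpha induces in liver, was well above background on 0 of the 3 sleep fragmented and 0 of the 3 control arrays, so no fold change is given for it. Acot1 and Acot2, like Cyp4a10 and other members of its family, are close paralogs, and how far their probes bind one another's transcripts was not tested.

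Angptl4, a PPAR target that inhibits lipoprotein lipase and is no member of the list, had its controls in the order seen for Acot1 and Ehhadh, with replicate 1 lowest and replicate 2 highest. Its levels were 2.90, 3.44 and 2.29 on the sleep fragmented arrays, against 2.73, 4.56 and 3.98 on the controls. Its log2 fold change was -0.88 ± 0.46 (SE, unadjusted p = 0.0859 by limma). It was -1.40 without control replicate 1 and -1.17 without sleep fragmented replicate 2 (unadjusted p = 0.00641 and 0.044 by limma), but -0.48 without control replicate 2 and -0.59 without sleep fragmented replicate 3. With median scaling it was -1.09 (unadjusted p = 0.0406 by limma), and with the replicate block the unadjusted p was 0.0239. The order of the controls was not particular to PPAR targets. The measured adipocyte and atrial markers described below had it too, except Fabp4, Lipe and Bmp10.

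**Figure D3:**
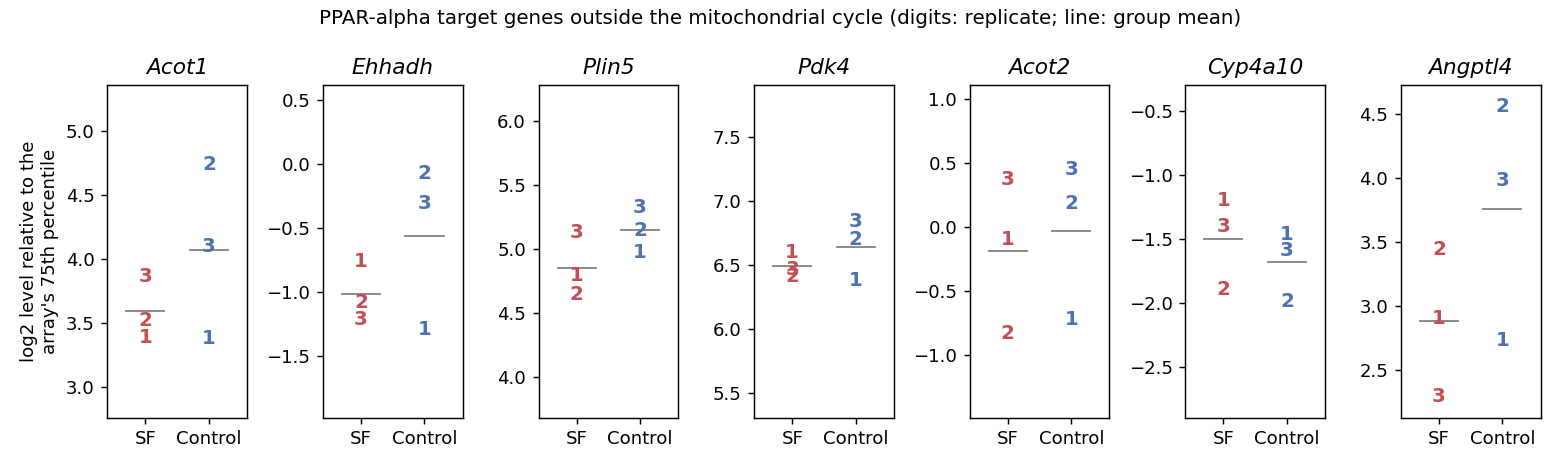
Levels (log2, relative to the 75th percentile of the array) of the 6 measured PPAR-alpha targets outside the mitochondrial cycle and of Angptl4, with sleep fragmented arrays (SF, red) left of controls (blue); digits are replicate numbers, lines are group means, and each panel spans the same number of log2 units. Control replicate 1 lies lowest of the controls in every panel but that of Cyp4a10, and apart from the other 2 controls for Acot1, Ehhadh, Acot2 and Angptl4.

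Many of the enzymes took their lowest level on the same array. Of the 29 genes, 19 (65.5%) had their lowest level on sleep fragmented replicate 2, 0 on replicates 1 and 3 of that group, 6 on control replicate 2, 4 on control replicate 1 and 0 on control replicate 3. Of all named genes 18% had their lowest level on sleep fragmented replicate 2, and of the fifth of named genes with the brightest probes 33.7%. The median level of the 29 genes was 4.41, 4.01 and 4.65 on the sleep fragmented arrays, against 4.50, 4.67 and 4.74 on the controls. The standard deviation was larger among the sleep fragmented arrays than among the controls for 20 of the 29 genes (69%), against 48.3% of named genes, with medians of 0.28 and 0.20. This was not particular to the list. All cardiomyocyte markers described below except Ttn (0.16 against 0.22) also had the larger value in the sleep fragmented group, such as Actc1 (0.46 against 0.19).

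**Figure D4:**
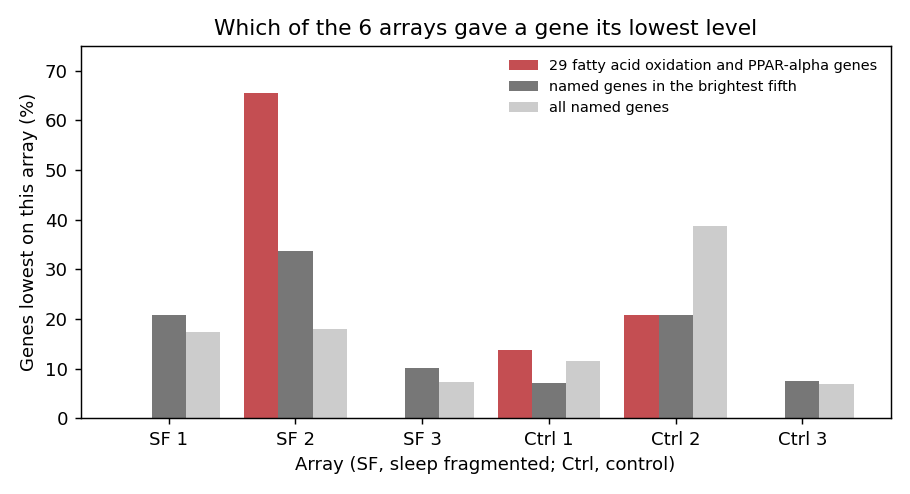
Share of genes, in percent, whose lowest level of the 6 arrays fell on each array, for the 29 genes (red), the named genes in the fifth with the brightest probes (dark grey) and all named genes (light grey). Sleep fragmented replicate 2 held the lowest level of 65.5% of the 29 genes, against 33.7% and 18%.

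The count of negative values changed with the arrays included and with the processing. With all arrays 21 of the 29 genes had a negative fit, with a median of -0.10, against a median of 0.08 over all measured probes. Without sleep fragmented replicate 2 the count was 11 of 29 and the median 0.03, against 0.13 over all probes. Without replicate 2 of both groups, a setting added after the data were seen, 16 of 29 were negative and the median was -0.02, against 0.07. The count was 18 without control replicate 3 and 17 without control replicate 1, with medians of -0.02 and -0.09, and with array weights it was 17 with a median of -0.03. In other settings the count rose, to 28 with median scaling (median -0.31, against -0.13 over all probes). It was 25 without control replicate 2 and 23 without sleep fragmented replicate 1, with a median of -0.14 for each. With quantile normalization and in the deposited log2 values it was 23. The median of the list minus that of all probes was -0.19 with all arrays and -0.11 without sleep fragmented replicate 2.

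The lean also went with probe brightness. The 29 genes had bright probes, 21 of them in the fifth of named genes with the brightest probes. Among these bright genes, 61.4% of named genes had a negative value and the median log2 fold change was -0.04, while 17 of the 21 list genes were negative with a median of -0.11. In the fifth with the dimmest probes, which held 0 of the 29, only 17.6% of named genes were negative and the median was 0.25.

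Several marker lists differed on replicate 2 of both groups. Heart muscle was present throughout, and all 10 cardiomyocyte markers, most of which atrial muscle expresses too, were well above background on all arrays, and their summed level (multiples of the 75th percentile of each array) was 1360, 794 and 935 on the sleep fragmented arrays, against 997, 804 and 994 on the controls, lowest on replicate 2 of both groups. The 5 measured of 6 atrial markers summed to 32.6, 313 and 60.8 on the sleep fragmented arrays, against 15.5, 213 and 53.0 on the controls, highest on replicate 2 of both groups. That sum consisted mainly of Nppa and Myl4. Bmp10, also measured, was highest on sleep fragmented replicate 2 but lowest on control replicate 2 (-2.39, -0.41 and -2.11 against -2.42, -3.08 and -2.39). Myl4, the atrial light chain, had levels of -0.09, 7.38 and 4.36 on the sleep fragmented arrays, against -0.18, 6.91 and 3.98 on the controls. Whether the samples held tissue other than ventricle was not tested. The median level of the 29 genes was 4.01 on sleep fragmented replicate 2, the lowest of the 6 arrays, and 4.67 on control replicate 2. Adipocyte markers, of which 5 of 8 were measured, had a mean log2 level of -0.05, 2.45 and 0.25 on the sleep fragmented arrays, against -0.52, 1.85 and 0.71 on the controls. Their summed level was 115, 92.0 and 64.1 on the sleep fragmented arrays, against 70.3, 75.9 and 72.9 on the controls, and it consisted mainly of Fabp4, which endothelial cells also express (6.82, 6.01 and 5.96 against 6.12, 5.96 and 6.13). Adipoq, the adipocyte hormone adiponectin, had -2.70, 2.80 and -1.49 on the sleep fragmented arrays, against -3.02, 1.88 and -0.79 on the controls, and like Cfd and Retn was highest on replicate 2 of both groups. Lipe, also measured, went the other way and was lowest on replicate 2 of both groups (-0.97, -1.42 and -1.15 against -1.28, -1.66 and -0.75). Of the 3 adipocyte markers not measured, Plin1 and Cidec were well above background on 4 arrays each and Lep on 0. The brown adipocyte list, a cell type rich in the same oxidation enzymes, had 2 of 4 markers measured, with Ucp1 well above background on 4 arrays and Elovl3 on 1, and its summed level was 208, 112 and 139 on the sleep fragmented arrays, against 146, 122 and 152 on the controls. That sum was almost wholly Cox7a1, which heart muscle also expresses. The other measured marker, Otop1, had 0.48, -1.44 and -2.78 on the sleep fragmented arrays, against -3.11, -2.59 and -2.76 on the controls. Fibroblast markers summed to 144, 161 and 97.1 on the sleep fragmented arrays, against 109, 94.8 and 99.2 on the controls. Macrophage markers summed to 14.1, 21.5 and 11.3 on the sleep fragmented arrays, against 12.2, 15.7 and 11.6 on the controls, and both lists were highest on sleep fragmented replicate 2. The part of these cell types in the levels of the 29 genes was not tested. Sleep fragmented replicate 1 had the lowest signal, with a 75th percentile of 127 against 212 to 262 on the other arrays, and the 5 measured of 6 erythroid markers summed to 390, 252 and 160 on the sleep fragmented arrays, against 106, 115 and 103 on the controls.

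Of 93 other genes of fatty acid oxidation and PPAR signalling, 87 were measured, and by limma 0 had an adjusted p under 0.05, 2 were higher and 1 was lower at an unadjusted p under 0.05, against 1.7% and 1.02% of named genes. Their median log2 fold change was -0.01, with 49 negative and 38 positive fits. The groups did not overlap for 8 genes, 2 above and 6 below in the sleep fragmented ventricles, against 3.44% and 3.96% of named genes.

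Ucp2, an inner membrane carrier that is a known target of fatty acids, had levels of -1.51, -1.02 and -1.84 on the sleep fragmented arrays, against -2.30, -2.25 and -2.07 on the controls (0.75 ± 0.23, SE, unadjusted p = 0.0109 and adjusted p = 0.949 by limma). Its groups did not overlap. Acsl6 and Acsl3, both long-chain acyl-CoA synthetases, differed in opposite directions. Acsl6 had -0.49, -0.69 and -0.68 on the sleep fragmented arrays, against -1.15, -1.14 and -0.98 on the controls (0.47 ± 0.18, unadjusted p = 0.0252 by limma). Acsl3 had -1.68, -1.21 and -1.15 on the sleep fragmented arrays, against -0.44, -0.59 and -0.96 on the controls (-0.68 ± 0.22, unadjusted p = 0.0142 by limma).

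Neither group overlapped the other for either synthetase gene. The unadjusted p of Acsl3 was 0.056 without sleep fragmented replicate 1 and 0.0619 without control replicate 1. That of Acsl6 lay between 0.0502 and 0.0745 without any one of sleep fragmented replicates 1 and 3 and control replicates 1 and 2. It was 0.201 with median scaling and 0.0582 without replicate 2 of both groups. Ucp2 was at 0.55 with median scaling (unadjusted p = 0.0643), 0.31 with normexp (unadjusted p = 0.0671) and 0.51 without replicate 2 of both groups (unadjusted p = 0.0524). Acsl1, the main acyl-CoA synthetase of heart muscle, chosen after its value was seen, gave 0.11 ± 0.21.

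Abhd5, the coactivator of the triglyceride lipase ATGL, had levels of 5.10, 4.26 and 5.08 on the sleep fragmented arrays, against 5.23, 5.30 and 5.36 on the controls. Its groups did not overlap, with most of the distance on sleep fragmented replicate 2 (-0.48 ± 0.25, SE, unadjusted p = 0.0864 by limma). It was at -0.20 without that replicate, and its unadjusted p was 0.0477 with quantile normalization, 0.0131 with median scaling (-0.69), 0.0163 with normexp and 0.0484 in the deposited log2 values. The other genes whose sleep fragmented arrays all lay below the controls were Nrf1 (-0.38 ± 0.23), a regulator of mitochondrial genes, Tfam (-0.20 ± 0.17), the mitochondrial transcription factor, Esrrg (-0.20 ± 0.18), an estrogen-related receptor, and Scp2 (-0.16 ± 0.17), a peroxisomal thiolase and lipid carrier; Tfam, Esrrg and Scp2 were chosen after their values were seen.

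Next by unadjusted p among the higher genes were Slc27a1 (0.51 ± 0.27), a fatty acid transporter, Ucp3 (0.42 ± 0.24), the muscle homologue of Ucp2, and Cpt1c (0.52 ± 0.33), the brain form of carnitine palmitoyltransferase 1. Among the lower genes they were Txnip (-0.38 ± 0.23), which restrains glucose uptake, and the retinoid X receptor gene Rxrg (-0.31 ± 0.22). These values did not pass.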

How the data were processed

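Per the file headers, the deposited intensity values (background-subtracted, spatially detrended spot signals, and median spot and background signals) come from version 11.0.1.1 of Feature Extraction; the submitters' processing notes name 10.5.1.1. The deposited spot flags are other values of 0 or 1. The authors' deposited table of log2 values has equal medians (5.53) in all columns, no source at hand states how it was made, and it served as an alternative. Control spots and outlier spots (180 to 240 per array) were removed, and the log2 values of a probe's spots were averaged. Each array's 75th percentile over non-control spots was subtracted. Of 39429 probes, 25238 were kept, being flagged well above background on all 3 arrays of either group. No spot was saturated. RefSeq accessions named 27234 probes through a GRCm38.p6 gene table. The brightest kept probe stood for a gene. Group and replicate came from the ends of the sample titles.

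Groups were compared with limma 3.58.1 under R 4.3.3 (lmFit and eBayes, whose prior had 4.88 degrees of freedom), two-sided, with adjustment over all kept probes; the number of arrays limits the precision. The fit was tested on simulated data. The members and gene lists were chosen with earlier results of these data known. The rule for named genes accounts for all 30 members, names those with the highest and lowest fold change of each role, and takes up to 6 pathway genes per direction by unadjusted p, of which 1 is not reported here. It asks for the values on each array only of members past a threshold, and since none was, the members shown on each array, Ppara, Cpt1b, Ehhadh, Acot2, Pdk4 and Plin5 among them, were chosen after their values were seen. Only the median spot signal was at hand for normexp.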

Additional observations from a re-analysis of the deposited data

How the results depend on the processing

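Under every alternative run, 0 of the 29 genes passed the adjusted threshold by limma. Over all probes 0 passed except 4 with the replicate block and 7 without replicate 2 of both groups. Of the 29, the number at an unadjusted p under 0.05 was 1 with median scaling (Plin5), 2 with normexp (Acadl and Etfb, both lower), 0 to 2 with single arrays left out (2 without control replicate 1, Acot1 and Ehhadh) and 0 otherwise. The median of the 29 lay between -0.16 and 0.03 with single arrays left out. It was -0.31 with median scaling, which put the median of all probes at -0.13, against 0.08 with the 75th percentile; the list's median minus that of all probes was -0.19 in both settings and -0.15 with quantile normalization.

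Some small values, and that of Acot1, changed sign. With median scaling these were Ppara (-0.07), Ppard (-0.12), Ppargc1a (-0.03), Cpt1a (-0.02), Cyp4a10 (-0.02), Hadhb (-0.15) and Etfdh (-0.13). Hadhb and Etfdh were at -0.15 and -0.05 with quantile normalization, -0.16 and -0.05 with normexp and -0.15 and -0.04 in the deposited table. With array weights Acot1 (0.01), Acot2 (0.42), Hadha (0.03), Decr1 (0.04), Ppard (-0.03), Hadhb (-0.04) and Etfdh (-0.02) were among those that changed sign. With single arrays left out, the range was -0.18 to 0.22 for Hadhb, -0.09 to 0.22 for Etfdh, -0.21 to 0.09 for Etfa, -0.02 to 0.35 for Cpt1a, -0.06 to 0.17 for Ppard, -0.01 to 0.41 for Ppargc1a, -0.26 to 0.45 for Ppara, -0.26 to 0.03 for Cpt1b and -0.50 to 0.16 for Acot2. Without replicate 2 of both groups, Ppara was at -0.07, Ppard at -0.04, Cpt1b at 0.05, Acot2 at 0.27 and Decr1 at 0.11, against -0.22 for Decr1 without control replicate 1. The cause was not tested.

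Same-numbered arrays did not deviate together throughout (r of 0.06, 0.55 and 0.21). In the file headers, same-numbered arrays of the groups carry the same barcode entry, so a barcode block was not run apart from the replicate block. With the replicate block 0 of the 29 had an unadjusted p under 0.05, against 7.82% of all probes. Within replicate numbers 1, 2 and 3 the median difference of the 29, sleep fragmented minus control, was 0.02, -0.27 and -0.04. Dim probes limit what can be said of Fgf21.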
